A study of Mus musculus with 6 samples.

Results

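Laminin and integrin genes were followed in messenger RNA from mouse testes, labelled day 9 with no starting event given. Of 6 libraries, 3 came from cKO mice, in which floxed Dcaf2 was deleted in germ cells by Stra8-Cre (Cre recombinase under a promoter active in differentiating spermatogonia), and 3 from mice labelled control, whose alleles the labels do not give. DCAF2 is a substrate receptor of the CRL4 ubiquitin ligase, and the study asked whether it is needed for spermatogenesis. The members are the rows of the deposited count table whose symbol names a laminin chain or an integrin subunit, 37 of 22274 genes, namely 11 laminin and 26 integrin rows. Itga10, which the table writes in capitals, and Itgb2l were not matched by this rule. The symbol Itgam stands on a pair of rows, and the supplied gene names call the second one (ENSMUSG00000108596) Gm49368, so reads may be split between these rows.

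Laminins are secreted proteins of the basement membrane. Each is a trimer of an alpha, a beta and a gamma chain, and the trimers form a sheet that is linked to type IV collagen by nidogen and perlecan. In the testis a basement membrane surrounds each seminiferous tubule, and Sertoli cells and peritubular myoid cells are both known to contribute to it. Integrins are cell surface receptors made of an alpha and a beta subunit, which bind laminins, collagens, fibronectin or proteins of other cells outside the cell and the actin cytoskeleton inside it through adaptors such as talin and kindlin. The ITGA6 and ITGB1 pair is a laminin receptor and is used to enrich mouse spermatogonial stem cells.

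Totals ran from 15407007 to 17564942 counts in cKO libraries and from 16097362 to 18372964 in control libraries. No label states that the 3 samples of a group came from different animals, and the p-values therefore reflect only sample-to-sample spread, which may be technical. Dtl, the current symbol of Dcaf2, was at 41.7, 43.8 and 51.4 CPM (counts scaled to library size) in cKO testes, against 42.6, 50.3 and 77.3 CPM in control testes, and the groups overlapped. Its log2 fold change was -0.31 (edgeR adjusted p = 0.281). With control library 1 left out it was -0.51 and passed (adjusted p = 0.0321). Whole-gene counts from whole testes, which hold somatic cells, check the labels only loosely. All 12 germ cell markers of the list used here were lower in cKO testes, the median log2 fold change being -1.50, with summed levels of 492 to 627 CPM, against 1313 to 1739 CPM in control testes. All 12 were called lower by edgeR (adjusted p under 0.05), beside 13.9% of all tested genes. In bulk tissue, fewer cells of a type and less RNA per cell cannot be told apart. Control library 1 stood apart from the other controls for many members: it was the lowest control for 21 of 32 tested members (39.9% of all tested genes), and with it left out 8 laminins and 5 integrins rose, and 1 laminin, Lama5, and 2 integrins fell. In that fit 2393 of all tested genes rose and 2863 fell, beside 1599 and 2008 with all libraries.

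The upstream sequences of a few members, picked by hand, are shown, namely some that rose and Lama5, which did not. They are the 250 bases before the annotated start in RefSeq (build GRCm38.p6), the only promoter window searched, and the build behind the deposited counts is not given in the sources used here. Capitals mark matches on either strand to a GC box (GGGCGG, which binds SP1-type factors) or a CCAAT box (CCAAT), and a TATA box (TATAAA) was also searched. No matches overlapped in these sequences. Of all 32851 promoter entries in the RefSeq table, 32.7% held a GC box, 33.8% a CCAAT box and 12.4% a TATA box in this window.
Lama2, alpha chain, minus strand, chr10:27616943-27617192: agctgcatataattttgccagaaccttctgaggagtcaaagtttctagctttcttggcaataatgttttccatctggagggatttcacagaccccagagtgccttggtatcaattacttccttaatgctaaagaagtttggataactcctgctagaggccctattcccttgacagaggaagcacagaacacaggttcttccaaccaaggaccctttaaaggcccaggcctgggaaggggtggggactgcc
Lamb1, beta chain, plus strand, chr12:31265043-31265292: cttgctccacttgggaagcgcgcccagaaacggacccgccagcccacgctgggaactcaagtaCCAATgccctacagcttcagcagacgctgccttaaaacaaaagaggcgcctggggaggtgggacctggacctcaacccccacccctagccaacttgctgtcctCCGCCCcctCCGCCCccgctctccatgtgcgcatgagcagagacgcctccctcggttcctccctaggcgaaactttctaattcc
Lamb2, beta chain, plus strand, chr9:108479612-108479861: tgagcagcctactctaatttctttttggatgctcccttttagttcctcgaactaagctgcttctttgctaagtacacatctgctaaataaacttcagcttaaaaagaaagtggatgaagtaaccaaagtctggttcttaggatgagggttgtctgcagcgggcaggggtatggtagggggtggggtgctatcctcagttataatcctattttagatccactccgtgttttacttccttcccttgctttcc
Lama5, alpha chain, minus strand, chr2:180225860-180226109: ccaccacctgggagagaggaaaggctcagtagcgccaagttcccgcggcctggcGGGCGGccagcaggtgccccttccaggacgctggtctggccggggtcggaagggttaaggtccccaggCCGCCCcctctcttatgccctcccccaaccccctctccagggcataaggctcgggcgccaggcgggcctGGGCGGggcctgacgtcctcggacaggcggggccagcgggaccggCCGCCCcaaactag
Itgb5, integrin beta subunit, plus strand, chr16:33829415-33829664: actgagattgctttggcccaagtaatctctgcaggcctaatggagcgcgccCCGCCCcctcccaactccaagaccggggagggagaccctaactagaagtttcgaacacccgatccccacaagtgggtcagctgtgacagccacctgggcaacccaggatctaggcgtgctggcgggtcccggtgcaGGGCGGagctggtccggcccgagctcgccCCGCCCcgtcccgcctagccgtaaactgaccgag
Lama2 and Lamb2 held 0 matches, Lamb1 held 2 GC boxes and 1 CCAAT box, Itgb5 held 3 GC boxes, and Lama5 held 4 GC boxes at a GC content of 72.4%. Lamb3, which did not pass either and whose sequence is not shown, held 0 matches in its windows, at a GC content of 58.8% and 61.2%. The median GC content of all entries was 52.4%. A relation between these matches and the changes was not tested. Member entries on a single chromosome were left out of the counts that follow, while the shares over all entries kept it. These counts may therefore miss members, and they hold no window of Lama1, Lama3, Lama4, Lamc1 or Lamc3, which rose. The entries counted were of 5 laminin and 17 integrin symbols, in 25 windows, of which 9 held a GC box, 4 a CCAAT box and 0 a TATA box. Of 8 windows that belong to members that rose, 5 held a GC box. These letters are descriptions and do not show binding of a factor.

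Most laminin transcripts were higher in cKO testes. Of 11 laminin genes, all of which were tested, 8 rose, 0 fell and 3 did not pass the threshold (edgeR quasi-likelihood test, Benjamini-Hochberg adjusted p under 0.05 over 14424 genes), where 11.1% of all tested genes rose and 13.9% fell (1599 and 2008 genes, and 1109 and 2421 with total-count scaling). No laminin was lower at an unadjusted p under 0.05 either (0 genes), nor with DESeq2 (0 genes) or limma-voom (0 genes). The median log2 fold change was 0.50, beside 0.03 over all tested genes and 0.49 over 14 Sertoli cell markers. When libraries were scaled to those markers, 0 laminins rose and the laminin median was 0.03. Each class of chain was represented, with 4 of 5 alpha chains, 2 of 3 beta chains and the gamma chains Lamc1 and Lamc3 higher. For these 8 genes every cKO library lay above every control library, and the groups did not overlap in this direction for 22.5% of all tested genes (44.6% in either direction). The family count was 5 without cKO library 2, where Lamb1, Lama4 and Lamc1 lost the call, and 7 or 8 without any other library. Without cKO library 2, 452 of all tested genes rose.

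**Figure D1:**
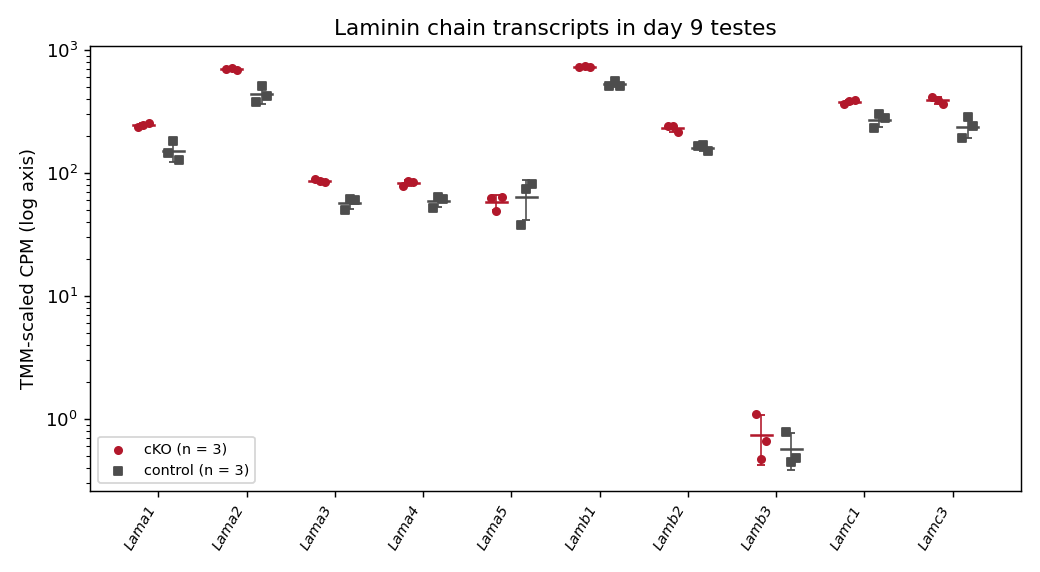
TMM-scaled CPM of 10 laminin genes on a log axis, with each of the 3 cKO libraries (red circles) left of the 3 control libraries (grey squares). Horizontal lines are means and bars are SD. For 8 genes all cKO points lie above all control points, and for Lama5 and Lamb3 the groups overlap.

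Among the alpha chains, which carry the main binding site for cell receptors, Lama2 (ENSMUSG00000019899) and Lama1 (ENSMUSG00000032796) rose most. Lama2, the chain of muscle-type basement membranes, was at 700.2, 714 and 685 CPM in cKO testes, against 376, 512 and 420.1 CPM in control testes. The cKO libraries were close together, and control library 1 was the lowest of the 6. Its log2 fold change was 0.68 (SE 0.121, edgeR adjusted p = 0.00552). Lama1, a chain of early embryonic and some adult epithelial basement membranes, was at 238, 248 and 254 CPM in cKO testes, against 146, 181 and 127 CPM in control testes. All 3 cKO libraries were above the highest control, control library 2, and the log2 fold change was 0.70 (SE 0.130, edgeR adjusted p = 0.00638).

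Lama3 and Lama4 rose at lower levels. Lama3, the alpha chain of the epithelial laminin of skin (ENSMUSG00000024421), was at 89.1, 85.8 and 84.8 CPM in cKO testes, against 50.4, 61.2 and 59.9 CPM in control testes (log2 fold change 0.60, SE 0.101, edgeR adjusted p = 0.00459). Lama4, found in vessel walls (ENSMUSG00000019846), was at 77.7, 86.5 and 84.9 CPM in cKO testes, against 51.8, 63.5 and 61.3 CPM in control testes (log2 fold change 0.50, SE 0.106, edgeR adjusted p = 0.0112). Its groups did not overlap, and it no longer passed without cKO library 2 (adjusted p = 0.0637).

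Lama5 (ENSMUSG00000015647), a chain of mature epithelial and vascular basement membranes, was the alpha chain that did not rise. It was at 62.2, 49.3 and 63.8 CPM in cKO testes, against 37.8, 74.7 and 80.7 CPM in control testes. The cKO libraries all lay between control library 1 and the other controls. The log2 fold change was -0.14 (95% interval -0.70 to 0.42, edgeR adjusted p = 0.709), -0.44 without control library 1 (adjusted p = 0.0126, past the threshold) and 0.06 without control library 3 (adjusted p = 0.909).

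Both abundant beta chains rose by similar amounts. Lamb1 (ENSMUSG00000002900), the widely used beta chain, was at 728, 739.8 and 723 CPM in cKO testes, against 514, 563 and 507 CPM in control testes. These libraries varied little within groups. The log2 fold change was 0.47 (SE 0.0891, edgeR adjusted p = 0.00717), and the adjusted p was 0.0516 without cKO library 2. Lamb2 (ENSMUSG00000052911), the beta chain of the synapse and of the kidney filter, was at 242, 239 and 214 CPM in cKO testes, against 165, 168 and 151 CPM in control testes (log2 fold change 0.52, SE 0.0952, edgeR adjusted p = 0.00599). Lamb3, a beta chain of the laminin of skin, had 17, 8 and 10 counts in cKO testes, against 15, 8 and 8 counts in control testes. Its log2 fold change was 0.36 (95% interval -0.65 to 1.37), and -0.03 without cKO library 1, so no difference was detectable at this depth.

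The gamma chains Lamc3 and Lamc1 rose in counts. Lamc3 (ENSMUSG00000026840), which in rat testis is a part of the apical junction between Sertoli cells and spermatids, was at 412, 395 and 364 CPM in cKO testes, against 192, 283 and 242 CPM in control testes. All cKO libraries lay above the highest control. Its log2 fold change, 0.71, was the largest of the 8 laminins that rose (SE 0.140, edgeR adjusted p = 0.00839). Lamc1 (ENSMUSG00000026478), the gamma chain of most laminins, was at 363, 387 and 391 CPM in cKO testes, against 233, 303 and 278 CPM in control testes (log2 fold change 0.49, SE 0.112, edgeR adjusted p = 0.0151). Lamc1 did not pass when control library 3 was left out (adjusted p = 0.053), nor without cKO library 1, 2 or 3 (0.0517, 0.0726 and 0.0616).

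The deposited FPKM values, fragments scaled by transcript length and library size, allow levels of different chains to be compared. By mean FPKM in cKO testes the order of the alpha chains was Lama2 at 105 ± 2.51, Lama1 at 25.3 ± 0.721, Lama3 at 13.9 ± 0.371, Lama4 at 13.4 ± 0.674 and Lama5 at 5.02 ± 0.709 (SD, n = 3). In control testes they were at 81.1 ± 5.12, 16.2 ± 2.68, 9.86 ± 0.705, 9.95 ± 0.965 and 5.78 ± 2.07 FPKM in the same sequence of genes (SD, n = 3). Within each group the Lama3 and Lama4 levels differed by less than the larger of their SDs. Lama2 made up 64.6 ± 0.909% of the summed alpha chain FPKM in cKO testes and 66.0 ± 3.78% in control testes, and Lamb1 made up 72.9 ± 0.770% of the beta chain sum in cKO testes and 73.4 ± 1.62% in control testes (SD, n = 3 each). Each share differed between the groups by less than the larger of its SDs. The alpha chain sum was 163 ± 1.76 FPKM in cKO testes and 123 ± 1.37 FPKM in control testes, and the beta chain sum was 169.7 ± 2.49 FPKM in cKO testes and 128 ± 7.73 FPKM in control testes (SD, n = 3 each). In control library 1 Lama2 was the lowest of the controls in counts (376 CPM) and the highest in FPKM (86.9), so that the control alpha chain sum, its small SD and the Lama2 share depend on the length behind that value.

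**Figure D2:**
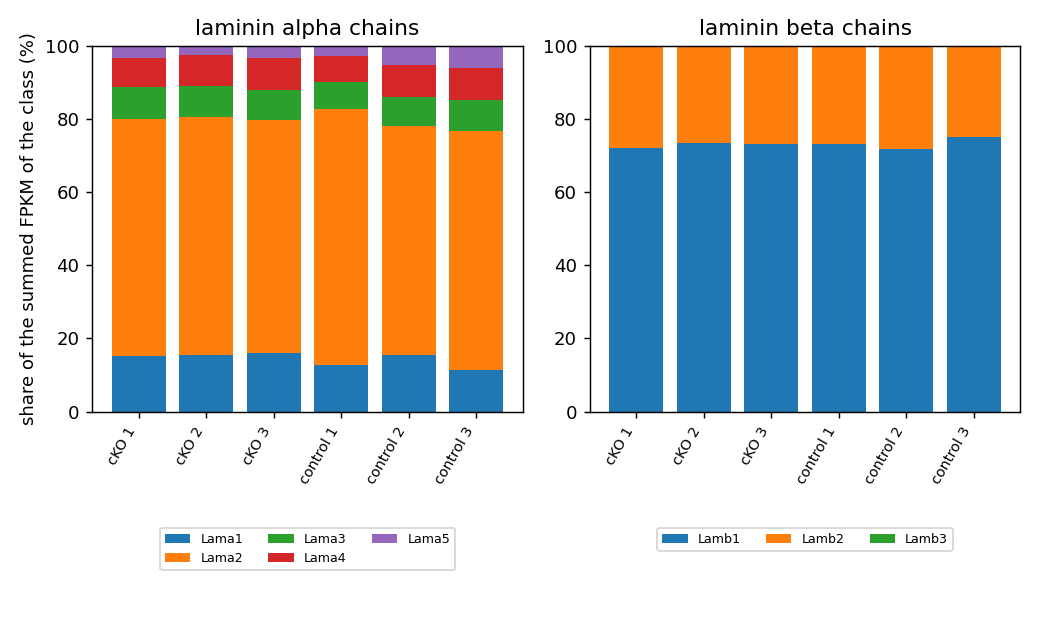
Share of each chain in the summed FPKM of its class (alpha on the left, beta on the right), as stacked bars in percent for the 3 cKO and then the 3 control libraries. Lama2 and Lamb1 lead their classes in every library, with mean shares of 64.6% and 72.9% in cKO testes and 66.0% and 73.4% in control testes.

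Counts and FPKM went apart for Lamc1. Its FPKM values were 48.7, 54.5 and 50.1 in cKO testes, against 64.7, 39.9 and 49.6 in control testes, so that control library 1, the lowest in counts, was the highest in FPKM. The length that count and FPKM together imply for Lamc1 was 3726 bases in control library 1 and 5788 to 7622 bases in the other libraries. On log2(FPKM + 0.1) values, tested with limma, Lamc1 differed by 0.02 (SE 0.161, adjusted p = 0.948), and the other 7 laminins that rose in counts were also higher (adjusted p = 0.00999 to 0.0324). Lama2 had a smaller difference on the FPKM scale, 0.38 (SE 0.0856, limma adjusted p = 0.0181). The implied length of Lama2 was 4472 bases in control library 1 and 5480 to 6661 bases elsewhere. Of 32 tested members, 4 had implied lengths that differed by over 1.4 times between libraries, and the files do not show how the lengths were set. Over all tested genes the ratio of the largest to the smallest implied length had a median of 1.04 and a 90th percentile of 1.33. Since the Lamc1 share of the gamma class rests on these lengths (43.4 ± 2.34% in cKO testes and 54.3 ± 10.5% in control testes, SD, n = 3 each), the order of Lamc1 and Lamc3 in control testes is uncertain.

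**Figure D3:**
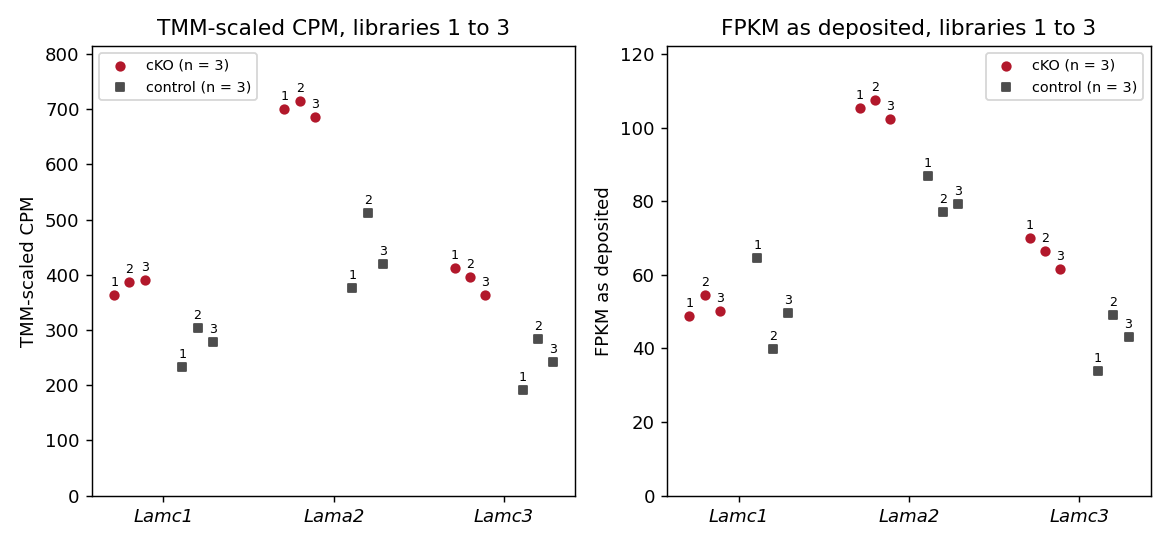
Lamc1, Lama2 and Lamc3 in each library (numbered 1 to 3; cKO red circles, control grey squares), as TMM-scaled CPM on the left and as deposited FPKM on the right, on linear axes from 0. In control library 1 Lamc1 has 233 CPM, the lowest of the 6 libraries, and 64.7 FPKM, the highest of the 6.

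Fewer of the integrin transcripts passed the test. Of 26 integrin rows 21 had enough counts to be tested, of which 5 rose, 2 fell and 14 did not pass, and the median log2 fold change was 0.29, which turned to -0.19 when libraries were scaled to Sertoli cell markers. Against the 11.1% and 13.9% of all tested genes that rose and fell, 4 of 14 alpha and 1 of 7 beta subunits rose, and 1 of each fell. The groups did not overlap for 9 integrins with cKO testes above and 2 with cKO testes below, beside 22.5% and 22.1% of all tested genes. The 5 untested rows had at most 21 counts in any library. This count of integrins depended on single libraries. The number that rose was 2 without control library 3 or cKO library 2, 0 without cKO library 1 or 3, and 7 without control library 2, and with total-count or upper-quartile scaling it was 2. Over all tested genes the number that rose was 677 without control library 3 and 1998 without control library 2. It was 476, 452 and 673 without cKO library 1, 2 and 3.

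**Figure D4:**
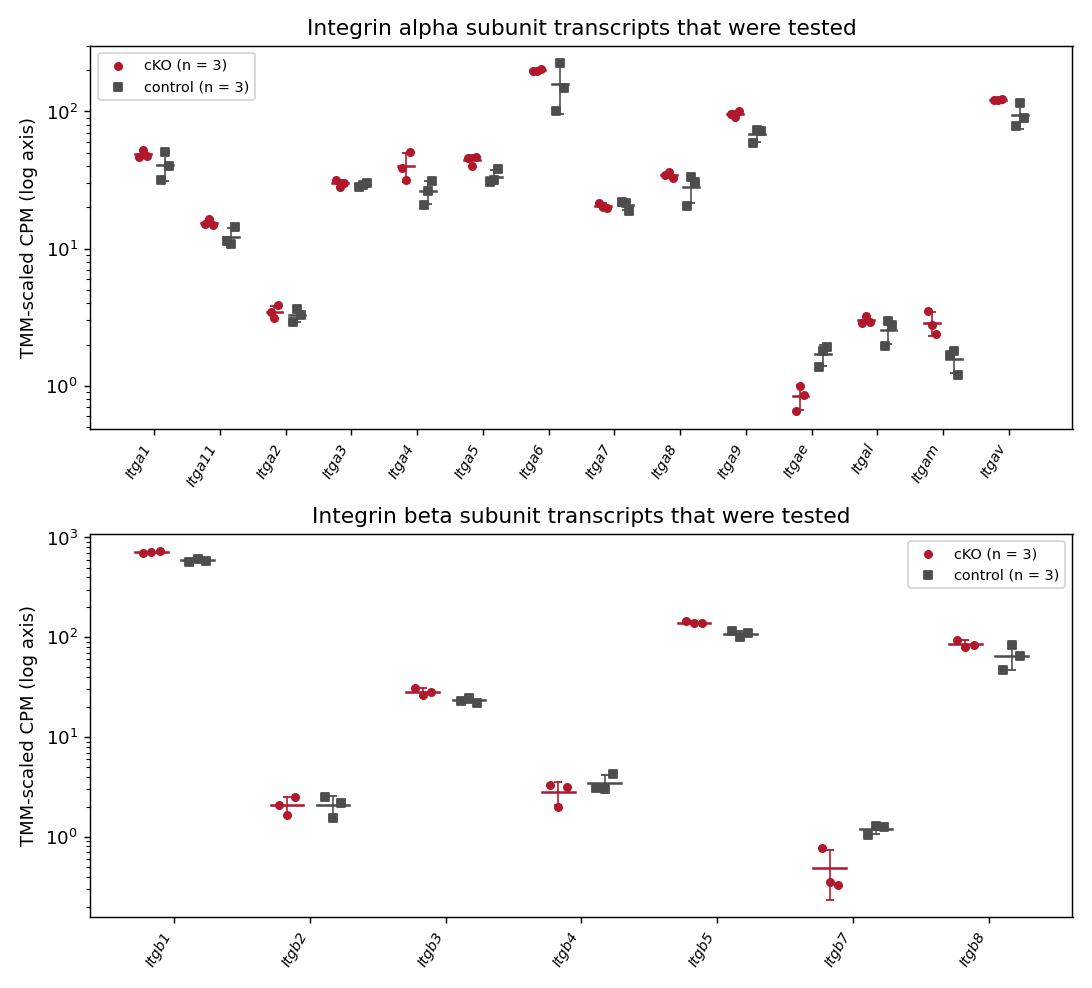
TMM-scaled CPM of the 14 alpha (upper panel) and 7 beta (lower panel) integrin subunits that were tested, on log axes, with the 3 cKO libraries (red circles) left of the 3 control libraries (grey squares). Lines are means and bars SD. Itga6 has 3 cKO points at 197 to 204 CPM inside a control range of 101 to 224 CPM.

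The 5 integrins that rose were Itga9, Itga5, Itga4, Itgb5 and Itgam. Itga9, a subunit that binds tenascin and fibronectin (ENSMUSG00000039115), was at 95.7, 91.2 and 100.1 CPM in cKO testes, against 58.8, 72.9 and 72.4 CPM in control testes. Every cKO library was above every control (log2 fold change 0.49, SE 0.109, edgeR adjusted p = 0.0129). It did not pass without cKO library 1 or 3 (adjusted p = 0.0573 and 0.0565). Itga9 was also the integrin that was higher by the FPKM test (limma adjusted p = 0.0371).

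Itga5 (ENSMUSG00000000555), the alpha subunit of the main fibronectin receptor, was at 46.1, 39.8 and 46.4 CPM in cKO testes, against 30.8, 31.5 and 38.0 CPM in control testes (log2 fold change 0.40, SE 0.116, edgeR adjusted p = 0.0352; -0.07 with scaling to Sertoli cell markers). Itga4 (ENSMUSG00000027009), which binds fibronectin and VCAM1, was at 38.7, 31.5 and 50.7 CPM in cKO testes, against 20.9, 26.4 and 31.2 CPM in control testes (log2 fold change 0.62, SE 0.194, edgeR adjusted p = 0.0447). The lowest cKO library lay just above the highest control for both genes. Itga5 did not pass with control library 2 left out (adjusted p = 0.0801), without cKO library 1, 2 or 3 (0.127, 0.0628 and 0.123), or with upper-quartile or total-count scaling (0.0535 and 0.0739). Itga4 did not pass with control library 1, 2 or 3 left out (0.0607, 0.0762 and 0.0567), without cKO library 1 or 3 (0.107 and 0.161), or with RLE, upper-quartile or total-count scaling or limma-voom (0.0559, 0.0506, 0.066 and 0.0506).

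Itgb5 (ENSMUSG00000022817), which pairs with ITGAV in a vitronectin receptor, was at 145, 138 and 138 CPM in cKO testes, against 115, 99.6 and 111 CPM in control testes (log2 fold change 0.37, SE 0.0929, edgeR adjusted p = 0.0207; -0.09 with scaling to Sertoli cell markers). Every cKO library was above every control. Itgb5 did not pass with control library 3 left out (adjusted p = 0.0662), nor without cKO library 1, 2 or 3 (0.092, 0.0832 and 0.0694). Its partner Itgav did not pass, at 120.5, 122 and 123 CPM in cKO testes, against 77.8, 115 and 89.6 CPM in control testes (log2 fold change 0.37, edgeR adjusted p = 0.0797). The Itgav groups did not overlap, and without control library 2, the highest control, it passed at 0.53 (adjusted p = 0.00746). Further partners of ITGAV did not pass either. Itgb8, whose pair with ITGAV activates latent TGF-beta, was at 94.3, 79.6 and 82.8 CPM in cKO testes, against 47.0, 84.6 and 65.2 CPM in control testes (log2 fold change 0.38, edgeR adjusted p = 0.162). Without control library 2 Itgb8 passed, at 0.60 (adjusted p = 0.0233). Itgb3, the beta subunit of the platelet fibrinogen receptor and of a vitronectin receptor, was at 31.1, 26.3 and 28.2 CPM in cKO testes, against 23.1, 24.6 and 22.04 CPM in control testes, without overlap (0.29, edgeR adjusted p = 0.0783).

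Itgb1 (ENSMUSG00000025809), the beta subunit shared by the laminin, collagen and fibronectin receptors, was the most abundant member, at 182 ± 3.14 FPKM in cKO testes and 159 ± 3.47 FPKM in control testes (SD, n = 3 each). In counts it was at 699.1, 709 and 725 CPM in cKO testes, against 573, 613 and 587 CPM in control testes. Every cKO library was above every control, but the difference was small, with a log2 fold change of 0.27 (95% interval 0.07 to 0.46) that missed the threshold (edgeR adjusted p = 0.0502). It passed with DESeq2 (adjusted p = 0.0258) and without control library 1 or 2 (edgeR adjusted p = 0.0472 and 0.0293).

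The alpha subunits of the classical laminin receptors did not pass (edgeR, 0 of 3, and 0 at an unadjusted p under 0.05). Itga6 (ENSMUSG00000027111), found on spermatogonia and on Sertoli cells and the most abundant alpha subunit at 46.3 ± 1.02 FPKM in cKO testes and 38.2 ± 14.4 FPKM in control testes (SD, n = 3 each), was at 198, 197 and 204 CPM in cKO testes, against 101, 224 and 149 CPM in control testes. The cKO libraries lay within the range of the controls, which spread more than 2-fold, and the log2 fold change was 0.33 (95% interval -0.19 to 0.86, edgeR adjusted p = 0.32). Without control library 2 it was 0.66 and passed (adjusted p = 0.0171). Itga3, of epithelial laminin receptors, was at 31.6, 28.0 and 30.2 CPM in cKO testes, against 28.2, 29.3 and 30.2 CPM in control testes, a log2 fold change of 0.03 (95% interval -0.19 to 0.25), which turned to -0.03 with total-count scaling and -0.43 with scaling to Sertoli cell markers. Itga7, the laminin receptor subunit of muscle, was at 20.4 ± 0.932 CPM in cKO testes and 20.7 ± 1.64 CPM in control testes (SD, n = 3 each), with a log2 fold change of -0.02 (95% interval -0.28 to 0.23). Itgb4, which pairs with ITGA6 in hemidesmosomes, had 51, 34 and 48 counts in cKO testes, against 59, 54 and 71 counts in control testes (-0.29, edgeR adjusted p = 0.468).

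The collagen-binding alpha subunits Itga1, Itga2 and Itga11 did not pass either (edgeR), and Itga11 had an unadjusted p under 0.05. Itga10, a further collagen-binding subunit that stands outside the matched symbols, also had one and did not pass (log2 fold change 0.48, edgeR adjusted p = 0.0972). Itga1 was at 46.6, 52.5 and 47.1 CPM in cKO testes, against 31.7, 50.6 and 39.9 CPM in control testes (log2 fold change 0.26, edgeR adjusted p = 0.25). Without control library 2 Itga1 passed, at 0.43 (adjusted p = 0.037). Itga11, found in stromal fibroblasts, was at 15.1, 16.4 and 14.8 CPM in cKO testes, against 11.3, 10.8 and 14.4 CPM in control testes, without overlap (0.35, edgeR adjusted p = 0.115). Itga2, also found on platelets, averaged 3.47 ± 0.371 CPM in cKO testes and 3.28 ± 0.362 CPM in control testes (SD, n = 3 each; edgeR adjusted p = 0.806). Itga8, a receptor of nephronectin and fibronectin, was at 34.4 ± 1.65 CPM in cKO testes and 28.1 ± 6.76 CPM in control testes (SD, n = 3 each; edgeR adjusted p = 0.23).

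Itgam, Itgae and Itgb7, integrins of leukocytes with at most 54 counts in any library, passed in opposite directions. Itgam (ENSMUSG00000030786), the macrophage subunit known as CD11b, had 54, 47 and 36 counts in cKO testes, against 32, 32 and 20 counts in control testes. Scaled, these were 3.51, 2.76 and 2.39 CPM in cKO testes, against 1.69, 1.78 and 1.201 CPM in control testes, and Itgam rose (log2 fold change 0.88, SE 0.275, edgeR adjusted p = 0.045). The other row of that symbol had 3, 0 and 2 counts in cKO testes and 0 in each control library. Itgae (ENSMUSG00000005947) and Itgb7 (ENSMUSG00000001281) encode the subunits of a receptor that holds T cells to E-cadherin on epithelia, and both fell. Itgae had 10, 17 and 13 counts in cKO testes, against 26, 32 and 32 counts in control testes (log2 fold change -1.0, SE 0.312, edgeR adjusted p = 0.045). In CPM, Itgae was at 0.650, 0.997 and 0.863 in cKO testes, against 1.37, 1.78 and 1.92 in control testes. Itgb7 had 12, 6 and 5 counts in cKO testes, against 20, 23 and 21 counts in control testes (-1.29, SE 0.401, edgeR adjusted p = 0.0445), or 0.780, 0.352 and 0.332 CPM in cKO testes, against 1.06, 1.28 and 1.26 CPM in control testes. All cKO libraries were below all controls for both. These 3 calls rest on few counts: Itgam and Itgae still passed without control library 1 and did not pass without any other single library (adjusted p = 0.053 to 0.171 for Itgam and 0.0889 to 0.167 for Itgae), and Itgb7 did not pass without control library 2 or 3 or cKO library 2 or 3 (0.0877 to 0.171). The Itgae and Itgb7 calls were also lost with DESeq2 (adjusted p = 0.0664 and 0.0623) and without a filter on low counts (0.0674 and 0.0684), and that of Itgam without the filter (0.0554) and with upper-quartile or total-count scaling (0.0527 and 0.059).

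The low-count subunits Itgb2 and Itgal did not pass, and Itgax, Itgad, Itga2b and Itgb6 were not tested. Itgb2, the partner of ITGAM and ITGAL, had 32, 28 and 38 counts in cKO testes, against 48, 28 and 36 counts in control testes (log2 fold change -0.01, 95% interval -0.66 to 0.65, edgeR adjusted p = 0.987). Itgal had 44, 55 and 44 counts in cKO testes, against 37, 53 and 46 counts in control testes (0.24, 95% interval -0.32 to 0.79, edgeR adjusted p = 0.511). Itgax had 8, 6 and 11 counts in cKO testes and 5, 6 and 2 in control testes, Itgad had 10, 8 and 5 in cKO testes and 7, 0 and 8 in control testes, and the platelet subunit Itga2b had 9, 8 and 8 in cKO testes and 21, 8 and 6 in control testes. Itgb6, an epithelial subunit, had 0, 3 and 0 counts in cKO testes and 0 in each control library.

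**Figure D5:**
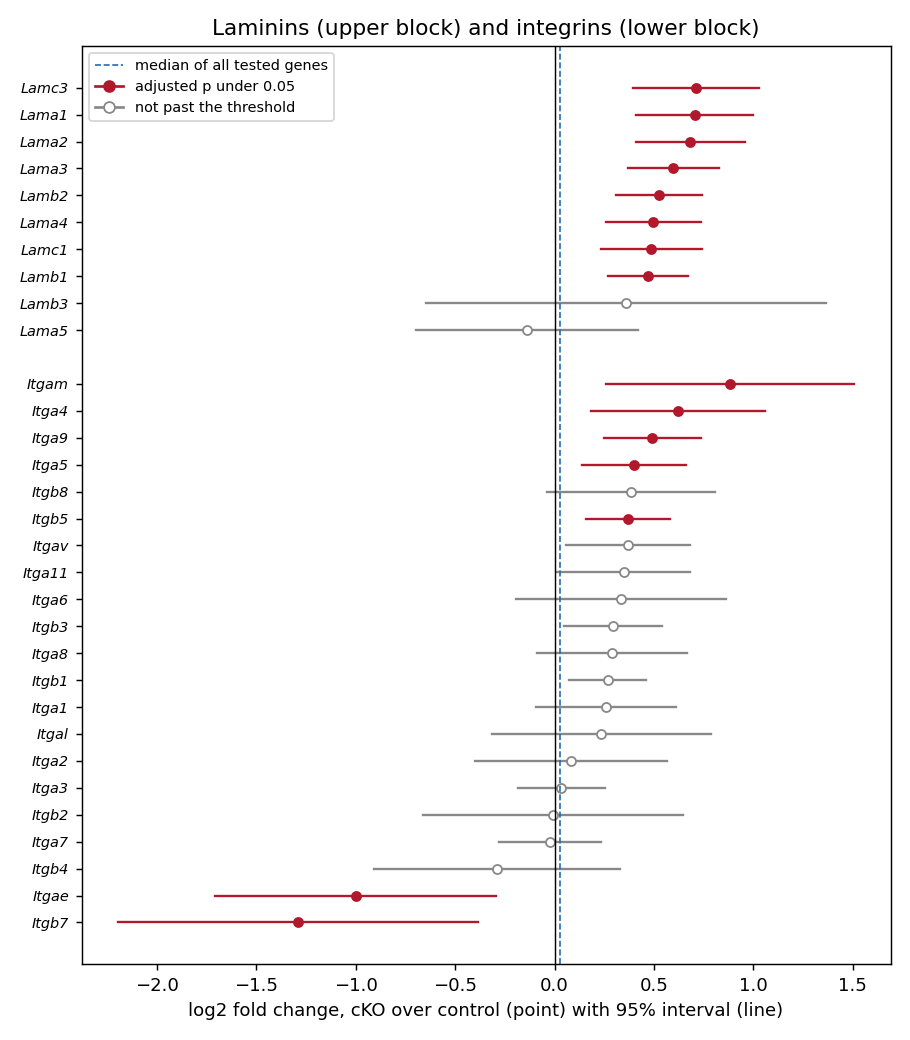
Log2 fold change of 10 laminins and 21 integrins, cKO over control (points), with its 95% interval (lines), laminins in the upper and integrins in the lower block, each ordered by size. Filled red points passed the adjusted p threshold of 0.05, open grey points did not, the solid line marks 0 and the dashed line the median of all tested genes (0.03). Of the laminins drawn, Lama5 alone lies below 0, and of 21 integrins 16 lie above 0.

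Partners of laminin in the basement membrane were read from the same fit, in which 11.1% of all tested genes rose and 13.9% fell. Of 20 genes of this list, all tested, 8 rose, 1 fell and 11 did not pass, with a median log2 fold change of 0.45 (-0.03 with scaling to Sertoli cell markers). Col15a1, a collagen of the basement membrane zone, averaged 248 ± 10.8 CPM in cKO testes and 149 ± 18.2 CPM in control testes (log2 fold change 0.74, edgeR adjusted p = 0.00287). Dag1, the dystroglycan receptor of laminin, averaged 1023 ± 25.2 CPM in cKO testes and 652 ± 61.3 CPM in control testes (0.65, edgeR adjusted p = 0.00327; SD, n = 3 each). The main type IV collagen genes Col4a1 and Col4a2 rose by 0.55 and 0.50 (edgeR adjusted p = 0.00682 and 0.00638). The member that fell, chosen after its value was seen, was Sdc1, a cell surface proteoglycan gene, at 29.0 ± 1.56 CPM in cKO testes and 40.7 ± 2.69 CPM in control testes (-0.49, edgeR adjusted p = 0.00849; SD, n = 3 each). The number that rose was 13 without control library 2, and Sdc1 did not pass without cKO library 1, where 0 of the list fell. Over all tested genes 1998 rose without control library 2, and 969 fell without cKO library 1.

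Over all tested genes 11.1% rose and 13.9% fell. Of 19 tested genes of other integrin ligands, 4 rose and 0 fell (0 also at an unadjusted p under 0.05, and with DESeq2 or limma-voom), with a median of 0.30 (-0.16 with scaling to Sertoli cell markers). They were the collagens Col1a2 (0.48, edgeR adjusted p = 0.00875) and Col1a1 (0.43, 0.0228; -0.03 with scaling to Sertoli cell markers), the microfibril gene Fbn1 (0.57, 0.0109) and Vwf, of vessel walls and platelets (0.65, 0.0224). Fn1, the fibronectin gene, named after its value was seen, did not pass, at 488, 517 and 628 CPM in cKO testes, against 340.5, 499.5 and 528 CPM in control testes. Fbn1 did not pass without cKO library 2 or 3 (adjusted p = 0.0539 and 0.0504), Col1a2 without cKO library 1 (0.0556), Col1a1 without control library 3 or any 1 cKO library (0.069 to 0.0957) and Vwf without control library 3 or cKO library 1 or 3 (0.0572 to 0.0986). Without control library 1 the list had 6 genes that rose and 1 that fell, and the number that rose was 1 without cKO library 1 or 3 and 2 without cKO library 2. Over all tested genes 2393 rose and 2863 fell without control library 1. The all-gene number that rose was 476, 452 and 673 without cKO library 1, 2 and 3.

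Inside the cell, 7 of 28 tested adaptors and partners of integrin tails rose and 0 fell (2 at an unadjusted p under 0.05; DESeq2 called 1 lower and limma-voom 0), with a median of 0.20 (-0.27 with scaling to Sertoli cell markers). The shares over all tested genes were 11.1% higher and 13.9% lower. The tensin genes, whose products link integrin tails to actin, were among the 4 with the smallest p: Tns2 rose by 0.54 (edgeR adjusted p = 0.00488), Tns3 by 0.55 (0.0124) and Tns1 by 0.60 (0.0239). The fourth was Lims1, of the complex with integrin-linked kinase, which rose by 0.37 (edgeR adjusted p = 0.0197; -0.09 with scaling to Sertoli cell markers). Tns2 still passed with any single library left out, while Tns3 did not without cKO library 1 or 2 (adjusted p = 0.0544 and 0.06), Tns1 without any 1 cKO library (0.0653 to 0.0858) and Lims1 not without control library 3 or any 1 cKO library (0.0698 to 0.0862). The number that rose was 4 without control library 3, 1 without cKO library 1 or 2, 2 without cKO library 3 and 4 with total-count scaling. Over all tested genes it was 677 without control library 3 and 476, 452 and 673 without cKO library 1, 2 and 3.

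Marker genes of somatic testis cells were read from the same fit, in which 11.1% of all tested genes rose and 13.9% fell. Of 14 Sertoli cell markers 9 rose and 0 fell (edgeR; 0 fell at an unadjusted p under 0.05), with a median of 0.49 and summed levels of 5509 to 6097 CPM in cKO testes, against 3792 to 5008 CPM in control testes. For interstitial stroma 5 of 8 markers rose (median 0.45, 7768 to 7977 CPM in cKO testes and 4911 to 6130 CPM in control testes), for endothelial cells 5 of 8 (median 0.46, 362 to 395 CPM in cKO testes and 264 to 296 CPM in control testes) and for Leydig cells 2 of 8 (median 0.68, 1281 to 1304 CPM in cKO testes and 642 to 1175 CPM in control testes). Of 8 peritubular myoid markers 1 rose (median 0.04), at 1657 to 1712 CPM in cKO testes and 1584 to 1630 CPM in control testes. For macrophages and leukocytes 2 of 8 rose (median 0.46, 133 to 177 CPM in cKO testes and 94.7 to 119 CPM in control testes), and of 6 markers of rete testis and ducts 0 rose and 1 fell (median 0.56, 50.6 to 60.4 CPM in cKO testes and 63.6 to 80.5 CPM in control testes, so that median and sum differ in sign). The gene of the rete testis and duct list that fell, named after its value was seen, was Epcam (log2 fold change -1.16, edgeR adjusted p = 0.000267). Epcam was at 19.2, 20.2 and 21.4 CPM in cKO testes, against 43.0, 45.4 and 47.9 CPM in control testes. It made up most of the summed level of its list in each control library. The other 5 genes of the rete testis and duct list had positive log2 fold changes, while the germ cell markers had a median of -1.50. Which cells the Epcam transcripts came from was not tested, so the lower sum cannot be read as a change of duct cells. No other marker of these lists fell (0 by edgeR, and 1, of the myoid list, at an unadjusted p under 0.05), and 0 markers were at 0 in all libraries. Vwf and Col1a1 stand both in marker lists and among the integrin ligands. Scaled to the Sertoli cell markers instead of all genes, which put the median of all tested genes at -0.43, 0 laminins and 0 integrins rose, 0 laminins and 4 integrins fell, the 8 laminins that rose with the usual scaling had log2 fold changes of 0.01 to 0.25, and the medians were 0.03 for laminins and -0.19 for integrins. The part of these cell types in the laminin and integrin values was not tested.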

How the data were processed

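Total RNA from 6 day 9 testis samples was made into messenger RNA libraries, per the labels' protocols. The authors deposited 1 table of counts and FPKM values for each gene in each library. StringTie 1.3.1 and RSEM are named, without their roles, per the submitters' processing notes, and no aligner, genome build, annotation or strand setting is given in the sources used here. The deposited whole numbers were treated as estimated counts, rounded by the authors, because each library has 3 to 21 genes with an FPKM above 0 and a count of 0, and were used as deposited. The deposited FPKM values were used to compare levels between genes and in 1 alternative test, limma on log2(FPKM + 0.1), chosen after seeing the data. That fold change understates the change of low genes.

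Low genes were removed with filterByExpr (edgeR 4.0.16, minimum count 10), leaving 14424 of 22274 genes, and the rest held 0.063% of counts. CPM values use TMM-scaled library sizes (trimmed mean of M values). The groups were compared by the quasi-likelihood test of edgeR (R 4.3.3) over all genes, without covariates, with Benjamini-Hochberg adjustment and a threshold of 0.05. The standard error (SE) is the log2 fold change divided by the square root of F. Fold changes are cKO over control. List genes were matched by Ensembl ID through the supplied gene names (22219 IDs matched). The procedure was tested on simulated data in which few genes were changed. Such data cannot check the scaling where many genes differ. Members were named, as were the 4 genes with the smallest p of each partner list. Of the members, 1 is counted in the totals and not reported here. Members and lists were chosen with earlier results of these data known. Alternatives were DESeq2 1.42.0, limma-voom (limma 3.58.1), other scalings and filters (none, or CPM of at least 1 in 3 libraries), the replicate number as a block and each library left out in turn.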

Additional observations from a re-analysis of the deposited data

How the results depend on the processing

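With RLE, upper-quartile or total-count scaling, either other filter, DESeq2, limma-voom or the block, 8 laminins rose and 0 fell. The scaling to Sertoli cell markers gave 0 laminins higher, 0 integrins higher and 4 lower (median -0.19), 0 basement membrane partners higher and 2 lower (median -0.027), 0 other ligands higher and 4 lower (median -0.16), 0 adaptors higher and 10 lower (median -0.27), and 44 of all genes higher and 6867 lower (median -0.43). It turned the log2 fold changes of Lamb3 (-0.071), Itgb5 (-0.088), Itgb1 (-0.20), Itga5 (-0.069), Itgav (-0.10), Itgb3 (-0.16), Itgb8 (-0.10), Itga11 (-0.12), Itga8 (-0.19), Itga6 (-0.15), Itga1 (-0.22), Itgal (-0.24), Itga2 (-0.38), Itga3 (-0.43), Col1a1 (-0.028) and Lims1 (-0.092). Total-count scaling gave 2 integrins higher, 4 adaptors higher and 2 lower, an all-gene median of -0.038 and Itga3 at -0.033, and upper-quartile scaling 2 integrins higher and 1 adaptor lower.

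Without a filter 0 integrins fell and the all-gene median was -0.00040. With DESeq2 0 integrins and 1 adaptor fell. The FPKM test gave 855 of all genes higher (median -0.033), 1 integrin higher and 0 lower, 2 ligands and 4 adaptors higher, Itga3 at -0.067 and Itgb2 at 0.039. Same-numbered samples did not deviate together (correlations -0.07, -0.08 and 0.07, and 0 of 3 cKO samples correlated best with their own number), and with the number as a block 8 laminins and 4 integrins rose, 0 integrins fell, 4 adaptors rose and Itgb2 was at 0.0010. The cause of these changes was not tested.

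Leaving out each library in turn gave 452 to 2393 of all genes higher and 903 to 2863 lower (median 0.0052 to 0.031), 5 to 8 laminins higher and 0 to 1 lower, 0 to 7 integrins higher and 0 to 2 lower (median 0.13 to 0.33), 6 to 13 basement membrane partners higher and 0 to 1 lower (median 0.30 to 0.48), 1 to 6 ligands higher and 0 to 1 lower, and 1 to 9 adaptors higher and 0 to 1 lower. Members near 0 changed sign, with ranges of -0.44 to 0.055 for Lama5, -0.028 to 0.65 for Lamb3, -0.086 to 0.0045 for Itga7, -0.025 to 0.16 for Itga2, -0.017 to 0.081 for Itga3 and -0.19 to 0.14 for Itgb2. Low counts limit Lamb3, Itgam, Itgae and Itgb7, and where a left-out library ended a call, fewer samples were tested.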

Other observations

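Control library 1 was the lowest of all 6 libraries for 18 of 32 tested members, namely 7 of 11 laminins and 11 of 21 integrins, and for 24.4% of all tested genes. The summed laminin level was 1769 CPM in control library 1 and 2212 and 1930.4 CPM in the other controls, below the 2867 to 2950 CPM of the cKO testes. Summed levels of some somatic markers were ordered the other way within the controls. The Sertoli cell marker sum was 5008 CPM in control library 1 and 3871 and 3792 CPM in the others, and the Leydig cell marker sum was 1175 CPM in control library 1 and 648 and 642 CPM in the others. The relation between these sums and the laminin levels was not tested. Whether the place of control library 1 goes with transcript length or RNA quality was not tested either, so these orders cannot be read as differences in cell content.

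Members varied less among cKO libraries than among controls. The median SD of log2 CPM over the tested members was 0.0916 in cKO libraries and 0.241 in control libraries, beside 0.104 and 0.202 over all tested genes. Itga10, which stands outside the matched symbols, was at 5.72, 6.45 and 4.85 CPM in cKO testes, against 4.43, 3.79 and 3.96 CPM in control testes.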
